A study of Mus musculus with 10 samples.

Results

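The 7 mouse genes described here encode the enzymes that write and remove DNA methylation, together with the protein that guides the maintenance enzyme to its substrate. They are Dnmt1, Uhrf1, Dnmt3a, Dnmt3b, Tet1, Tet2 and Tet3, and they were chosen by name, with earlier results of these data known. All 7 were found among the 22923 gene symbols of the expression tables, and all 7 passed the filter on low values in each test across libraries. Tet1, Tet2 and Dnmt3b were at times close to that filter of 1 FPKM, and this is given beside their values. FPKM gives a gene's sequenced fragments relative to its transcript length and to the library's size, so that levels of different genes can be set side by side.

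DNA methylation in mammals is placed mostly on cytosines that precede a guanine (CpG). After replication the new strand lacks the mark, and DNMT1 copies it from the old strand, guided by UHRF1, which binds the hemimethylated CpG and ubiquitinates histone H3. DNMT3A and DNMT3B methylate sites without a template, while TET1, TET2 and TET3 oxidise methylcytosine so that the mark is lost by dilution at replication or by base excision repair. In blood cells, loss of Dnmt3a or Tet2 is known to favour self-renewal of stem cells, and Tet2 and Tet3 are known to act together in developing B and T cells.

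The libraries come from C57bl/6 mice aged 4 weeks and hold 5 cell populations, namely cycling and quiescent CD4+CD8+ thymocytes, large pre-B cells, small pre-B cells and mature granulocytes. Large pre-B cells are the dividing and small pre-B cells the resting stage before light chain rearrangement is complete. Control mice had the genotype Dyrk1a flox/flox, Mx1-Cre-, and the other mice (CKO) are labelled Dyrk1a -/-, Mx1-Cre+. Mx1-Cre is known as a transgene switched on by interferon, not bound to one cell lineage. How it was induced, and which surface markers and gates defined the populations, are not stated in the labels. The kinase DYRK1A is known for acting on D-type cyclins and on DREAM, which keeps cell-cycle genes off in resting cells. Each population and genotype is 1 library from 2 pooled mice, which makes 10 libraries in all. A Control-to-CKO difference within a population therefore has no replicate, and tests that run over populations measure the spread between libraries of 2 pools, not between animals.

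The sequencing depth of the libraries is not known. Their FPKM summed to between 360394 and 431868 in the 8 lymphoid libraries and to 830006 and 1074258 in Control and CKO granulocytes. From the steps between low values, 1 fragment was estimated to weigh 2.11 and 2.36 times as much in Control and CKO granulocytes as in Control cycling thymocytes, against 1.03 to 1.32 times in the other lymphoid libraries. That estimate rests on 18 to 146 genes per library, and low granulocyte values are accordingly coarse. The 10 thymocyte marker genes summed to 2834 to 4298 FPKM in thymocytes and to at most 31.3 FPKM elsewhere, and the 10 pre-B markers to 1997 to 3968 FPKM in pre-B cells and to at most 25.3 FPKM elsewhere. Of the granulocyte markers found, 9 and 11 of 12 reached 1 FPKM in Control and CKO granulocytes, and S100a8, S100a9 and Ngp were listed at 0 in some granulocyte libraries. Dyrk1a itself was at 31.2 to 37.4 FPKM in Control and at 34.4 to 44.7 FPKM in CKO libraries, and was not lower in any CKO library than in its Control partner. Which part of the gene was deleted the sources do not say, so its gene-level value does not check the genotype labels, and CKO below means the library so labelled. A sum of 12 cell-cycle genes, among them Mki67, Top2a and Ccnb1, was 1782 and 1952 FPKM in Control and CKO cycling thymocytes, and large pre-B cells had 2005 and 2192 FPKM. Quiescent thymocytes had 63.0 and 514 FPKM in Control and CKO, small pre-B cells 413 and 927 FPKM, and granulocytes 646 and 665 FPKM.

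Dnmt1 and Uhrf1, the maintenance pair, were far above the other 5 genes in the dividing cells. Dnmt1 lies on chr9:20907209-20959888 (minus strand, mm10, GENCODE vM21). In Control and CKO libraries, Dnmt1 was at 96.6 and 125 FPKM in cycling thymocytes, 24.7 and 51.2 FPKM in quiescent ones, 127 and 153 FPKM in large pre-B cells, 39.1 and 83.8 FPKM in small pre-B cells and 42.1 and 38.9 FPKM in granulocytes. Both cycling populations were above every other library, with large pre-B cells highest. The ranges of small pre-B cells, granulocytes and quiescent thymocytes overlapped, so their order is not set beyond the difference between the genotypes. The level of Dnmt1 left in quiescent cells was 25.6% of the cycling level in Control thymocytes and 41.0% in CKO thymocytes. In pre-B cells it was 30.8% in Control and 54.8% in CKO.

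Uhrf1 lies on chr17:56303321-56323486 (plus strand). In Control and CKO libraries, Uhrf1 was at 215 and 258 FPKM in cycling thymocytes, 19.7 and 103 FPKM in quiescent ones, 252 and 262 FPKM in large pre-B cells, 81.2 and 172 FPKM in small pre-B cells and 31.8 and 35.1 FPKM in granulocytes. It was among the most abundant transcripts of dividing cells, at the 97.4th to 97.9th percentile of symbols with at least 1 FPKM in the 4 cycling libraries, and at the 60.2nd percentile in Control quiescent thymocytes. Large pre-B cells and cycling thymocytes overlapped at the top, and below them the ranges of small pre-B cells, quiescent thymocytes and granulocytes overlapped each with the next. Uhrf1 in quiescent thymocytes was at 9.19% of the cycling level in Control and at 40.0% in CKO. In pre-B cells it was at 32.3% in Control and 65.6% in CKO.

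The change with quiescence was tested in the 8 lymphoid libraries with limma on log2(FPKM + 1), as quiescent minus cycling within each lineage and genotype, with Benjamini-Hochberg adjustment over 11126 genes and a threshold of 0.05. The added 1 FPKM understates the change of low genes. In thymocytes 44.9% of all genes passed, in pre-B cells 47.4%, and for the mean of both lineages 61.5%, so a call was common. Of the 7 genes, 5 passed in thymocytes, with 3 higher and 2 lower, where 25.2% of all genes were higher and 19.7% lower. In pre-B cells 5 passed, again 3 higher and 2 lower, against 25.6% and 21.8% of all genes. In the mean of both lineages 7 passed, 4 higher and 3 lower, against 34.6% and 26.9%. Each of the 7 moved in the same direction in 4 of 4 cycling-to-quiescent pairs. In single pairs 51.2% to 57.0% of all genes with 1 FPKM in either library were higher. How many of all genes kept a direction in 4 of 4 pairs was not counted. The median over all genes was 0.06 in thymocytes, 0.04 in pre-B cells and 0.07 in the mean.

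On the log2 scale Dnmt1 fell by 1.60 in thymocytes (SE 0.24, adjusted p = 0.0082) and fell by 1.27 in pre-B cells (SE 0.24, adjusted p = 0.012). Its mean over both lineages fell by 1.43 (SE 0.17, adjusted p = 0.0022). In thymocytes Uhrf1 fell by 2.35 (SE 0.50, adjusted p = 0.016), and its mean over both lineages fell by 1.73 (SE 0.35, adjusted p = 0.0095). In pre-B cells the Uhrf1 difference was -1.11 (SE 0.50, adjusted p = 0.12), which did not pass, although both pre-B pairs were lower. This SE is shared by both lineages and holds the wide gap between the thymocyte pairs. With the thymocyte Control pair or the thymocyte CKO pair left out, Uhrf1 passed in pre-B cells, at adjusted p = 0.024 and 0.021. Its thymocyte value was -1.31 (adjusted p = 0.093) without the thymocyte Control pair. With the pre-B Control pair left out, the mean for Uhrf1 did not pass (adjusted p = 0.082). The single-lineage counts rest on the Control pairs: without the thymocyte Control pair 0 of 7 passed in thymocytes, and without the pre-B Control pair 0 of 7 passed in pre-B cells, where only 4 and 3 of all genes were then called. Without the thymocyte CKO pair 3 of 7 passed in thymocytes, and without the pre-B CKO pair 1 of 7, Dnmt1, passed in pre-B cells. In these bulk libraries fewer cycling cells and less RNA per cell cannot be told apart, and the 12 cell-cycle genes moved along with Dnmt1 and Uhrf1, with a median of -2.58 and 12 of 12 lower in the mean of both lineages. Their part in the result was not tested. In pre-B cells markers of other cells moved with state too. All 6 erythroid genes tested were lower in small than in large pre-B cells (median -2.02), 4 of 6 monocyte genes were lower (median -1.77), and so were 5 of 10 natural killer genes and 2 of 4 progenitor genes. Of 11 granulocyte genes 7 were higher and 4 lower, and 2 of 7 plasmacytoid dendritic cell genes were higher. Mpo was at 365 and 159 FPKM in Control and CKO large pre-B cells and at 6.48 and 4.57 FPKM in small ones. In thymocytes 0 of 11 granulocyte and 0 of 10 natural killer genes were called, 1 of 6 monocyte genes was higher and 1 of 6 erythroid genes lower. However, at most 2 of 10 natural killer and 6 of 12 granulocyte genes reached 1 FPKM in any thymocyte library. Genes below that level could hardly be called there, so these counts do not show that other cells were absent. The part of these cells in the pre-B differences was not tested.

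**Figure D1:**
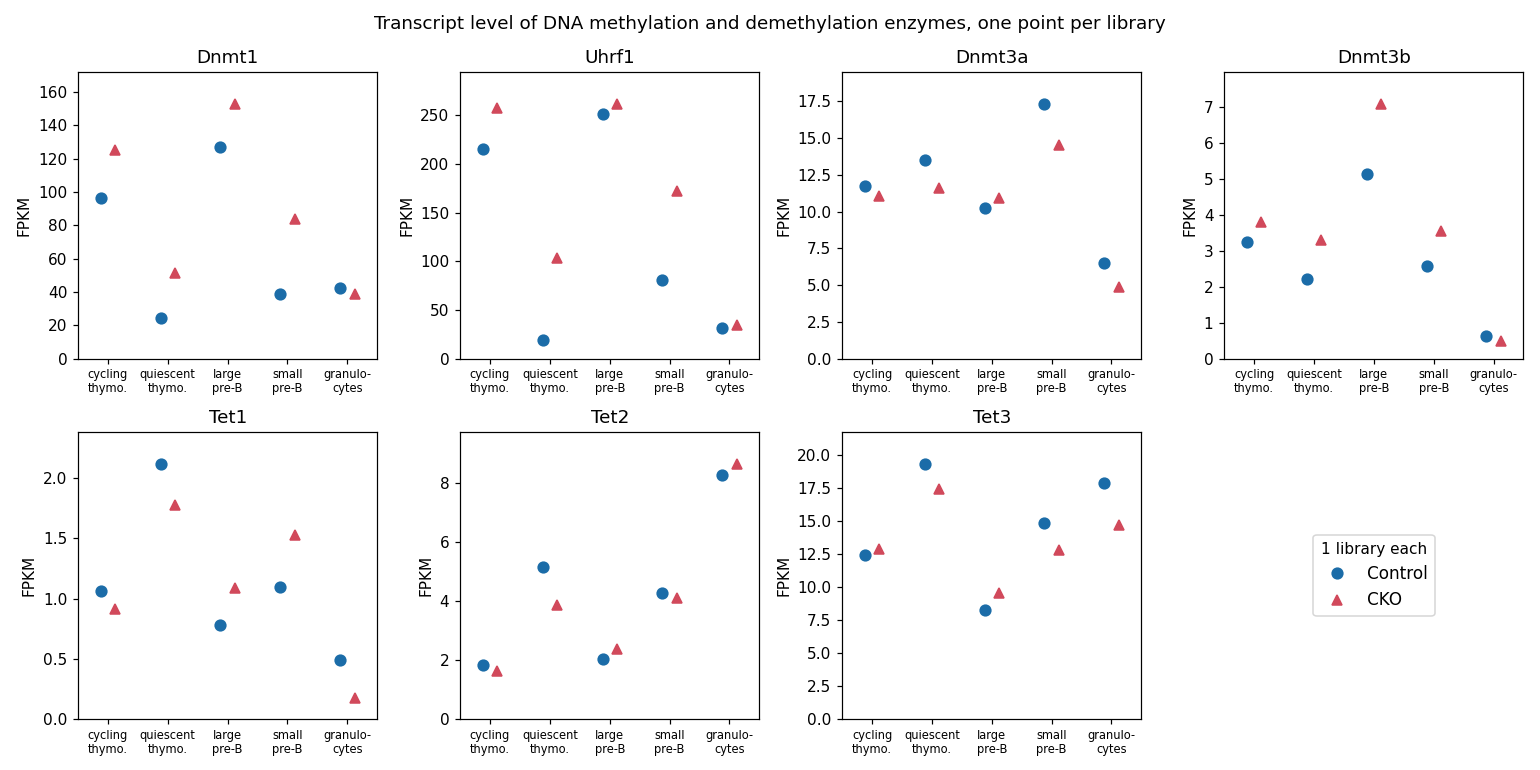
Level of each of the 7 genes in FPKM (vertical axis, linear, starting at 0, with its own scale for each gene) in the 5 populations (thymo. stands for CD4+CD8+ thymocytes). Each symbol is 1 library of 2 pooled mice, Control as circles and CKO as triangles, with no error bars because there is 1 library of each kind. Dnmt1 and Uhrf1 are highest in the cycling populations, Tet2 in granulocytes.

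**Figure D2:**
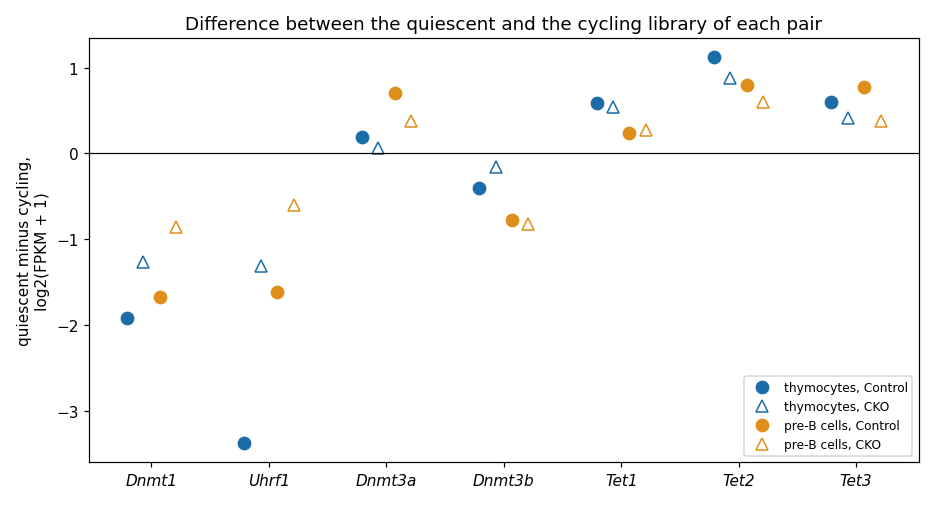
Difference between the quiescent and the cycling library on the log2(FPKM + 1) scale (vertical axis) for each gene, 1 symbol for each of 4 pairs; filled circles are Control and open triangles CKO, thymocytes in blue and pre-B cells in orange. Dnmt1, Uhrf1 and Dnmt3b lie below 0 and Dnmt3a, Tet1, Tet2 and Tet3 above 0 in 4 of 4 pairs.

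The start-site regions of Dnmt1 and Uhrf1 are shown because the transcripts of both genes moved together, and that of Tet2 because it moved the other way. RefSeq (GRCm38.p6) lists 12 such regions for the 7 genes, each running from 250 bases before to 50 bases after an annotated start. Dnmt1 has 3 of them, Uhrf1 2 and Dnmt3a 3, and which start was used in these cells is not shown by gene-level FPKM. All 12 were searched on both strands for 4 forms of the E2F site, TTTCCCGC, TTTCGCGC, TTTGCCGC and TTTGGCGC, and for 2 forms of the cell-cycle homology region (CHR), TTTGAA and TTCGAA, the elements known to bind E2F and DREAM proteins. An E2F form was found in 1 of the Dnmt1 regions and 1 of the Uhrf1 regions, both with 33 CpG, and in none of the other 10. It was present in 2.26% of the 32851 regions of that length in RefSeq. A CHR form was found in another Dnmt1 region and in the Dnmt3b region, and in 19.2% of the 32851. The sequences are given 5′ to 3′ on the gene's strand, with matches to an E2F or CHR form in capitals on either strand.
Dnmt1, chr9:20952574-20952873, minus strand: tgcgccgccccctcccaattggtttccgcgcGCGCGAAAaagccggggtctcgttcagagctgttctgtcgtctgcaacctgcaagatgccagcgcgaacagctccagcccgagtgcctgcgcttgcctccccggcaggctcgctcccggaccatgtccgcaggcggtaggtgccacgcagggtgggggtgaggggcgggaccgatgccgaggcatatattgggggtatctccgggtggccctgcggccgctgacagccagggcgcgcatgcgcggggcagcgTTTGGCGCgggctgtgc
Uhrf1, chr17:56304063-56304362, plus strand: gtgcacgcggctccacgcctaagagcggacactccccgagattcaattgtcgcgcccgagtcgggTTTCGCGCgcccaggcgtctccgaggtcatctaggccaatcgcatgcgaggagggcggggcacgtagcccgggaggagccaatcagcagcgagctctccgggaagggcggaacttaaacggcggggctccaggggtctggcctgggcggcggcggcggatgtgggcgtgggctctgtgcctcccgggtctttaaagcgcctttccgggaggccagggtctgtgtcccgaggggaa
Tet2, chr3:133544341-133544640, minus strand: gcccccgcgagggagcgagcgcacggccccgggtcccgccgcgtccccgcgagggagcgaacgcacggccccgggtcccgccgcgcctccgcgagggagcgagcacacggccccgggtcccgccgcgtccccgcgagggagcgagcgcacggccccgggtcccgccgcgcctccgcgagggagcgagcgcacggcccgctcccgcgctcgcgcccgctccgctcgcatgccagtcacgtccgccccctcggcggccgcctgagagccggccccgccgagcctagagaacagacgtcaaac
In the Dnmt1 region the capitals at bases 32 to 39 are TTTCGCGC on the opposite strand, and those at bases 284 to 291 are TTTGGCGC. In the Uhrf1 region TTTCGCGC stands at bases 66 to 73, counted from the first base shown. The Tet2 region, with 57 CpG, holds no match. Of 401 tested genes with an E2F form in any region, 192 (47.9%) were lower in quiescent cells in the mean of both lineages, with a median of -0.23, against 2175 (27.3%) of 7959 genes with a region, with a median of 0.07. The 401 genes are among the 7959, and the part of E2F sites in these changes was not tested. A match is a description of the letters in the window, not of a bound site.

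The template-free enzymes were lower than Dnmt1, and their changes with quiescence had opposite signs. Dnmt1 over the sum of Dnmt3a and Dnmt3b was 6.45 to 8.48 in cycling libraries and 1.57 to 4.64 in quiescent ones. Dnmt3a, on chr12:3806007-3914443 (plus strand), was at 11.7 and 11.1 FPKM in Control and CKO cycling thymocytes, 13.5 and 11.6 FPKM in quiescent ones, 10.3 and 10.9 FPKM in large pre-B cells, 17.3 and 14.5 FPKM in small pre-B cells and 6.49 and 4.89 FPKM in granulocytes. Small pre-B cells stood highest and granulocytes lowest, each outside the range of its neighbour, and both thymocyte populations overlapped. Dnmt3a rose in quiescent pre-B cells by 0.54 on the log2 scale (SE 0.13, adjusted p = 0.022). In thymocytes its difference was 0.13 (SE 0.13, adjusted p = 0.47), and the difference between lineages, -0.41 (SE 0.18), did not pass (adjusted p = 0.21). The mean rose by 0.33 (SE 0.09, adjusted p = 0.025), but the adjusted p was 0.12, 0.063 and 0.13 without the thymocyte Control, thymocyte CKO or pre-B Control pair.

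Dnmt3b, on chr2:153649450-153687730 (plus strand), was at 3.25 and 3.80 FPKM in Control and CKO cycling thymocytes, 2.22 and 3.29 FPKM in quiescent ones, 5.14 and 7.08 FPKM in large pre-B cells, 2.57 and 3.55 FPKM in small pre-B cells and 0.632 and 0.504 FPKM in granulocytes. The level was highest in large pre-B cells, the ranges of the next 3 populations overlapped, and granulocytes were below 1 FPKM in both libraries. In quiescent pre-B cells Dnmt3b fell by 0.81 (SE 0.13, adjusted p = 0.0077), to 50.0% of the cycling level in Control and 50.2% in CKO. In thymocytes the difference was -0.28 (SE 0.13, adjusted p = 0.13). The difference between lineages, 0.52 (SE 0.18), did not pass (adjusted p = 0.14), and the mean fell by 0.54 (SE 0.09, adjusted p = 0.0050). As a result the level of Dnmt3a over that of Dnmt3b was 1.99 and 1.55 in Control and CKO large pre-B cells and 6.73 and 4.08 in small pre-B cells, against 10.3 and 9.71 in granulocytes. Antisense genes overlap Dnmt3a (Dnmt3aos, 2952 bases) and Dnmt3b (Dnmt3bos, 837 bases). The sources used here do not say whether reads were counted by strand, so reads of these partners cannot be told apart.

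All 3 Tet genes were higher in quiescent than in cycling cells in 4 of 4 pairs, a count not made for all genes. Tet3, on chr6:83362373-83459084 (minus strand), was the most abundant, at 12.5 and 12.9 FPKM in Control and CKO cycling thymocytes, 19.3 and 17.4 FPKM in quiescent ones, 8.26 and 9.58 FPKM in large pre-B cells, 14.8 and 12.8 FPKM in small pre-B cells and 17.9 and 14.7 FPKM in granulocytes. The level was lowest in large pre-B cells, outside the range of every other population, and the other 4 populations overlapped each with the next. Tet3 rose with quiescence in thymocytes by 0.50 (SE 0.14, adjusted p = 0.035), in pre-B cells by 0.58 (SE 0.14, adjusted p = 0.023) and in the mean by 0.54 (SE 0.10, adjusted p = 0.0067). The thymocyte call was lost without any one of the 4 pairs, at adjusted p from 0.052 to 0.27, and the pre-B call without either pre-B pair, at 0.063 to 0.23. A transcript on the other strand, B230319C09Rik, overlaps Tet3 by 6568 bases.

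Tet2, on chr3:133463679-133545139 (minus strand), was at 1.83 and 1.64 FPKM in Control and CKO cycling thymocytes, 5.15 and 3.86 FPKM in quiescent ones, 2.02 and 2.37 FPKM in large pre-B cells, 4.26 and 4.09 FPKM in small pre-B cells and 8.27 and 8.64 FPKM in granulocytes. Granulocytes were highest, both quiescent lymphoid populations overlapped in the middle, and both cycling populations were lowest. The quiescent level was 282% and 235% of the cycling level in Control and CKO thymocytes, and 211% and 173% in pre-B cells. Tet2 rose by 1.0 in thymocytes (SE 0.14, adjusted p = 0.0073), by 0.70 in pre-B cells (SE 0.14, adjusted p = 0.013) and by 0.85 in the mean (SE 0.10, adjusted p = 0.0020). Without the thymocyte Control pair the thymocyte value was 0.88 (adjusted p = 0.078), and without the pre-B Control or CKO pair the pre-B value was 0.60 or 0.80 (adjusted p = 0.14 and 0.063).

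Tet1, on chr10:62804570-62908996 (minus strand), was close to the filter throughout. It was at 1.07 and 0.915 FPKM in Control and CKO cycling thymocytes, 2.12 and 1.78 FPKM in quiescent ones, 0.780 and 1.09 FPKM in large pre-B cells, 1.10 and 1.53 FPKM in small pre-B cells and 0.488 and 0.172 FPKM in granulocytes. Quiescent thymocytes were highest, small pre-B cells next, cycling thymocytes and large pre-B cells overlapped, and granulocytes were lowest. Tet1 rose in thymocytes by 0.56 (SE 0.12, adjusted p = 0.016) and in the mean by 0.41 (SE 0.08, adjusted p = 0.0095), and its pre-B difference of 0.25 (SE 0.12) did not pass (adjusted p = 0.13). Without the thymocyte Control or the thymocyte CKO pair its thymocyte value was 0.54 or 0.59 (adjusted p = 0.13 and 0.073).

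Summed over Tet1, Tet2 and Tet3, the level was 15.3 and 15.4 FPKM in Control and CKO cycling thymocytes, 26.6 and 23.1 FPKM in quiescent ones, 11.1 and 13.03 FPKM in large pre-B cells, 20.2 and 18.4 FPKM in small pre-B cells and 26.6 and 23.5 FPKM in granulocytes. Tet3 made up 62.6% to 83.4% of that sum. Tet2 made up 10.6% to 22.2% in lymphoid libraries and 31.1% and 36.7% in Control and CKO granulocytes. Set against the maintenance enzyme, the level of Dnmt1 over the Tet sum was 11.5 and 11.7 in Control and CKO large pre-B cells and 1.94 and 4.55 in small pre-B cells. In thymocytes the ratio was 6.30 and 8.09 in cycling and 0.929 and 2.22 in quiescent cells, and in granulocytes it was 1.58 and 1.65. Control quiescent thymocytes were thus the one library with less Dnmt1 than Tet transcript. These ratios describe transcripts and were not tested.

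**Figure D3:**
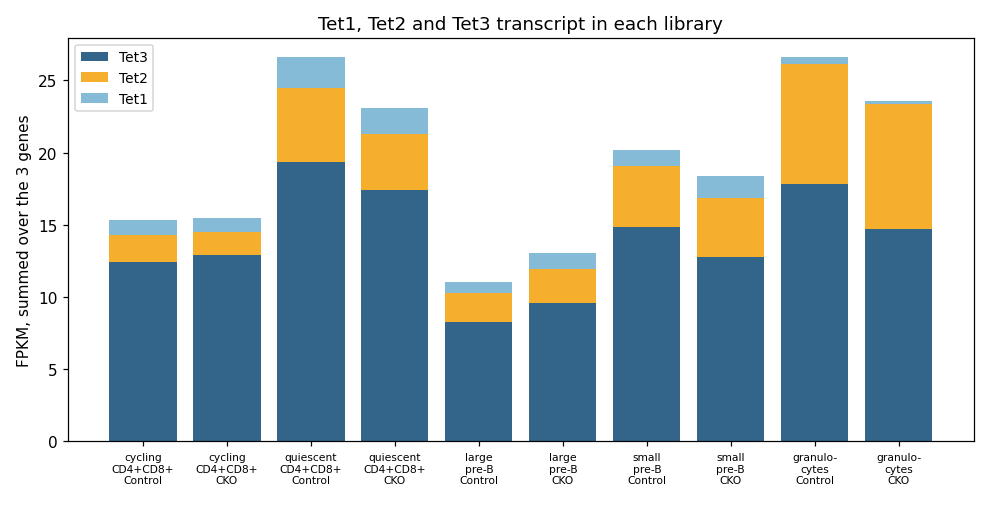
FPKM of Tet3, Tet2 and Tet1 stacked for each of the 10 libraries (vertical axis, linear, starting at 0), 1 bar per library of 2 pooled mice, with no error bars because there is 1 library of each kind. The sum ranges from 11.1 FPKM in Control large pre-B cells to 26.6 FPKM in Control granulocytes and Control quiescent thymocytes, and the Tet2 part is largest in granulocytes.

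No member's state effect was shown to differ between thymocytes and pre-B cells. Of the 7, 0 passed the limma test of that difference (adjusted p from 0.14 for Dnmt3b to 0.83 for Tet3), against 6.84% of all genes. Dnmt3b was the 1 member with an unadjusted limma p under 0.05 (unadjusted p = 0.031, adjusted p = 0.14). By unadjusted p this was 1 of 7, where 28.2% of all genes were under 0.05. Thymocytes were compared with pre-B cells within each state in the same 8 libraries, so these comparisons, the state effects and the genotype effects below share their data. In cycling cells 3 of the 7 passed, where 50.6% of all genes did, so the members' share was not above the background. Dnmt1 was lower in cycling thymocytes than in large pre-B cells by a log2 difference of -0.34 (SE 0.08, adjusted p = 0.029) and Dnmt3b by -0.64 (SE 0.13, adjusted p = 0.018), while Tet3 was higher by 0.47 (SE 0.10, adjusted p = 0.020). Without either the cycling Control or the cycling CKO pair 0 of 7 passed.

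In quiescent cells 4 of the 7 passed, where 63.4% of all genes did. Dnmt1 was lower in quiescent thymocytes than in small pre-B cells by -0.67 (SE 0.08, adjusted p = 0.0033) and Uhrf1 by -1.36 (SE 0.31, adjusted p = 0.017). Without the quiescent Control pair the Uhrf1 difference was -0.73 (adjusted p = 0.014). Dnmt3a was lower by -0.32 (SE 0.10, adjusted p = 0.048) and Tet3 was higher by 0.39 (SE 0.10, adjusted p = 0.026). Both calls were lost without any one of the 4 pairs, with adjusted p from 0.11 to 0.14 for Dnmt3a and from 0.062 to 0.087 for Tet3. Over both states 4 passed against 71.7% of all genes, with Dnmt1, Uhrf1 and Dnmt3b lower and Tet3 higher in thymocytes. Uhrf1 was at -0.74, and at -0.43 without the quiescent Control pair. Dnmt1 alone of these 4 kept its call without each pair. Without the cycling Control pair 1 of 7 passed over both states, and without the cycling CKO pair 2 of 7. The 12 cell-cycle genes had a median lineage difference of -0.99 over both states. Of the 12, 5 were called lower in thymocytes, against 4177 of all 11126 genes. In quiescent cells the median was -1.97 with 9 of 12 called lower, against 3585 of 11126 genes. In cycling cells it was -0.04 with 1 called lower, against 2897 of 11126 genes. Their part in the differences of Dnmt1 and Uhrf1 was not tested.

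On the FPKM scale, mature granulocytes had the highest Tet2 and the lowest Dnmt3a, Dnmt3b and Tet1 of the 5 populations. All FPKM summed to 830006 and 1074258 in Control and CKO granulocytes, against 360394 to 431868 in lymphoid libraries. No test here used levels as a share of that sum, and by share the order of populations can differ. Against the mean of the 4 lymphoid populations (all 10 libraries, 11715 genes), all 7 passed, but so did 80.8% of all genes. Tet2 was higher by 1.25 (SE 0.12, adjusted p = 5.04e-05) and Tet3 by 0.30 (SE 0.11, adjusted p = 0.037). Dnmt3b was lower by -1.58 (SE 0.13, adjusted p = 2.44e-05), Dnmt3a by -1.02 (SE 0.10, adjusted p = 7.83e-05) and Tet1 by -0.77 (SE 0.14, adjusted p = 0.0018). Dnmt3b and Tet1 were under 1 FPKM there, where values are coarsest. Dnmt1 was lower by -0.87 (SE 0.23, adjusted p = 0.0094) and Uhrf1 by -1.98 (SE 0.41, adjusted p = 0.0034). The test against pre-B cells alone, which come from the same tissue, also passed for 7 of 7, where 77.8% of all genes did, with Tet2 at 1.22 and Dnmt3b at -1.77. Markers of other cells also differed against the mean of the 4 lymphoid populations. Of all 11715 genes 4839 were higher in granulocytes. Of 8 monocyte genes 7 were higher there (median 3.01), summing to 2994 and 2408 FPKM in Control and CKO granulocytes. Of 6 progenitor genes 4 were higher (median 1.39), summing to 27.9 and 17.1 FPKM. Their part in these differences was not tested. Although labelled mature, both granulocyte libraries held transcripts of dividing cells, with Mki67 at 76.0 and 95.1 FPKM in Control and CKO and Top2a at 122 and 127 FPKM. In FPKM, Dnmt1 and Uhrf1 in granulocytes were both above their levels in Control quiescent thymocytes. Uhrf1 over Dnmt1 was 0.756 and 0.902 in Control and CKO granulocytes and 0.799 in Control quiescent thymocytes, against 1.71 to 2.22 in the other 7 libraries.

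Between CKO and Control, the largest of the members' differences on the log2(FPKM + 1) scale were those of Uhrf1 and Dnmt1 in the quiescent populations. Within a population a log2 ratio of 1 or more was taken as a difference, provided that the higher of both libraries had 5 FPKM or more, and with 1 library a group this is a description with no test. In quiescent thymocytes the FPKM of Uhrf1 was 5.21-fold and that of Dnmt1 2.07-fold higher in CKO. These were 2 of the 7 genes, of which Dnmt3b and Tet1 were below 5 FPKM there and could not count. Of all genes at 5 FPKM or more, 5.26% differed, 3.66% in the higher direction. In small pre-B cells Dnmt1 was 2.14-fold and Uhrf1 2.11-fold higher, again 2 of 7, with Dnmt3b, Tet1 and Tet2 below 5 FPKM. Of all genes at 5 FPKM or more in small pre-B cells, 6.3% differed and 4.52% were higher. In cycling thymocytes (0.954% of all genes at 5 FPKM or more), large pre-B cells (1.84%) and granulocytes (2.33%), 0 of 7 differed by this rule. Tet1 was below 5 FPKM in each, Tet2 in both cycling populations, and Dnmt3b in cycling thymocytes and granulocytes. In cycling thymocytes, large pre-B cells and granulocytes CKO over Control was 1.29, 1.20 and 0.924 for Dnmt1 and 1.20, 1.04 and 1.10 for Uhrf1. The remaining 5 genes stayed within a log2 difference of -0.35 to 0.41 in all 5 populations on the log2(FPKM + 1) scale. Tet1 in granulocytes, under 1 FPKM in both libraries, was 0.352-fold in CKO on the FPKM scale, and with a pseudocount of 0.1 its log2 difference was -1.11. Tet2, Tet3 and Dnmt3a were lower in CKO in both quiescent populations, Tet3 was higher in both cycling ones, and Dnmt3b was higher in all 4 lymphoid populations.

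In the fit by state, the genotype difference in quiescent populations was 1.05 for Dnmt1 (SE 0.08, unadjusted p = 1.06e-04, adjusted p = 0.059) and 1.70 for Uhrf1 (SE 0.31, unadjusted p = 0.0035, adjusted p = 0.097). Neither passed limma's threshold, nor did any of the 11126 genes (0.0%), although 2132 (19.2%) had an unadjusted p under 0.05. Those 2 and Dnmt3b (0.38, unadjusted p = 0.040) were the members among them. With quiescent thymocytes left out both Dnmt1 and Uhrf1 passed (adjusted p = 0.029 and 0.037), and with small pre-B cells left out both passed as well (0.017 and 0.0017). Those fits have a lone pair of quiescent libraries, assumed to vary like the other populations, and 496 and 484 of all genes, without small pre-B cells and without quiescent thymocytes in that order, were then called. In the cycling populations the difference was 0.32 for Dnmt1 (SE 0.08, unadjusted p = 0.016, adjusted p = 0.98) and 0.16 for Uhrf1 (SE 0.31, adjusted p = 0.98), and 0 of 7 passed, against 0.027% of all genes. Dnmt1 was the 1 member with an unadjusted p under 0.05, as 4.16% of all genes had.

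The genotype difference in quiescent cells minus that in cycling cells was 1.54 for Uhrf1 (SE 0.44, unadjusted p = 0.019, adjusted p = 0.65) and 0.73 for Dnmt1 (SE 0.12, unadjusted p = 0.0023, adjusted p = 0.51). For Tet3 it was -0.29 (SE 0.14, adjusted p = 0.82). Of the 7, 0 passed, against 0.018% of all genes, and Uhrf1 and Dnmt1 were the 2 with an unadjusted p under 0.05, where 6.7% of all genes were. Uhrf1 was at 2.17 (adjusted p = 0.0066) without small pre-B cells, the 1 member then called, and at 0.91 (adjusted p = 0.16) without quiescent thymocytes. Taken alike over the 4 lymphoid populations, 0 of 7 passed, against 0.036% of all genes, with Dnmt1 at 0.68 (SE 0.16, unadjusted p = 0.0061, adjusted p = 0.23), Uhrf1 at 0.93 (SE 0.37, unadjusted p = 0.048, adjusted p = 0.29) and Dnmt3b at 0.33 (SE 0.09, unadjusted p = 0.012, adjusted p = 0.24). Those 3 had an unadjusted p under 0.05, as did 16.8% of all genes, and Uhrf1 was at 0.46 without quiescent thymocytes. Over all 5 populations 0 of 7 passed, against 0.0512% of all genes. There Dnmt1, at 0.53 (SE 0.18, unadjusted p = 0.024, adjusted p = 0.26), was the 1 member with an unadjusted p under 0.05, against 16.8% of all genes. Uhrf1 was at 0.77, and at 0.38 without quiescent thymocytes.

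The cell-cycle genes moved with the genotype in the same populations. Their CKO minus Control median was 3.23 in quiescent thymocytes, with 12 of 12 at least 2-fold higher, and 1.13 in small pre-B cells, with 10 of 12. It was 0.07, 0.13 and 0.08 in cycling thymocytes, large pre-B cells and granulocytes. Markers of other cells also moved. In small pre-B cells natural killer and innate genes summed to 44.4 and 240 FPKM in Control and CKO, with 7 and 10 of 10 at 1 FPKM or more and a list median of 1.82 and 13.9 FPKM. In quiescent thymocytes 1 of those 10 reached 1 FPKM, Gzma, at 20.2 and 54.5 FPKM. Plasmacytoid dendritic cell genes summed to 158 and 482 FPKM in small pre-B cells. Monocyte genes summed to 20.7 and 140 FPKM there, with 5 of 8 at 1 FPKM or more in both. Mpeg1, at 4.27 and 77.6 FPKM, and Ly6c2, at 6.38 and 45.6 FPKM, were higher in CKO, while F13a1, at 3.40 and 2.20 FPKM, and Ms4a6c, at 3.74 and 2.01 FPKM, were lower. The defining gene Csf1r was at 0.350 and 0.319 FPKM. In quiescent thymocytes F13a1 was at 46.4 and 10.6 FPKM, lower in CKO, and Csf1r was under 0.1 FPKM. In small pre-B cells the pre-B markers Igll1, at 107 and 440 FPKM, and Vpreb1, at 132 and 418 FPKM, were higher in CKO. In large pre-B cells Igll1 was at 282 and 462 FPKM and Vpreb1 at 253 and 415 FPKM in Control and CKO. The other pre-B markers were lower in CKO small pre-B cells, among them Cd79a, at 1238 and 675 FPKM, and Cd22, at 45.6 and 20.4 FPKM. The part of these cells and of these pre-B genes in the Dnmt1 and Uhrf1 differences was not tested.

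**Figure D4:**
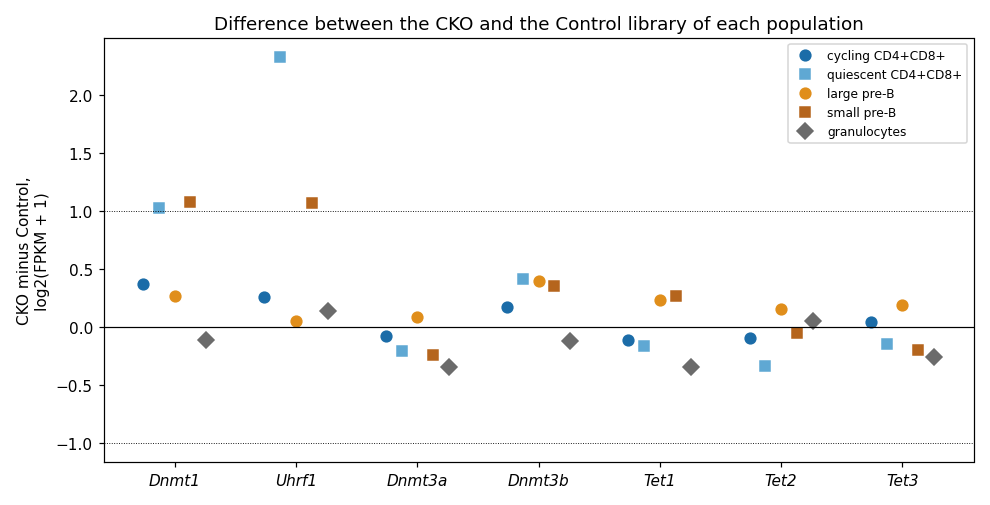
CKO minus Control on the log2(FPKM + 1) scale (vertical axis) for each of the 7 genes, 1 symbol per population, each from 2 libraries; dotted lines mark a log2 difference of 1 in either direction. Dnmt1 and Uhrf1 exceed 1 in quiescent thymocytes and small pre-B cells, and no other symbol does.

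The share of the cycling level that quiescent cells kept differed among replication genes. In Control thymocytes it was 1.22% for Mki67, 1.23% for Top2a, 2.94% for the DNA ligase Lig1 and 0.201% for Pclaf, a PCNA partner known to be ubiquitinated for DNMT1 recruitment. It was 25.6% for Dnmt1, 26.3% for Pcna, the sliding clamp, 23.2% for the helicase subunit Mcm2 and 28.0% for Cdca7. Uhrf1 kept 9.19% and the remodeller Hells 7.21%. In CKO thymocytes the shares were 24.4% for Mki67, 24.0% for Pclaf, 43.3% for Hells, 54.7% for Pcna and 34.9% for Lig1. All 10 genes so examined kept more in the CKO than in the Control pair, in thymocytes and in pre-B cells. The genes beside Dnmt1 and Uhrf1 were picked after their values were seen, and the share of all genes that did so was not counted.

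**Figure D5:**
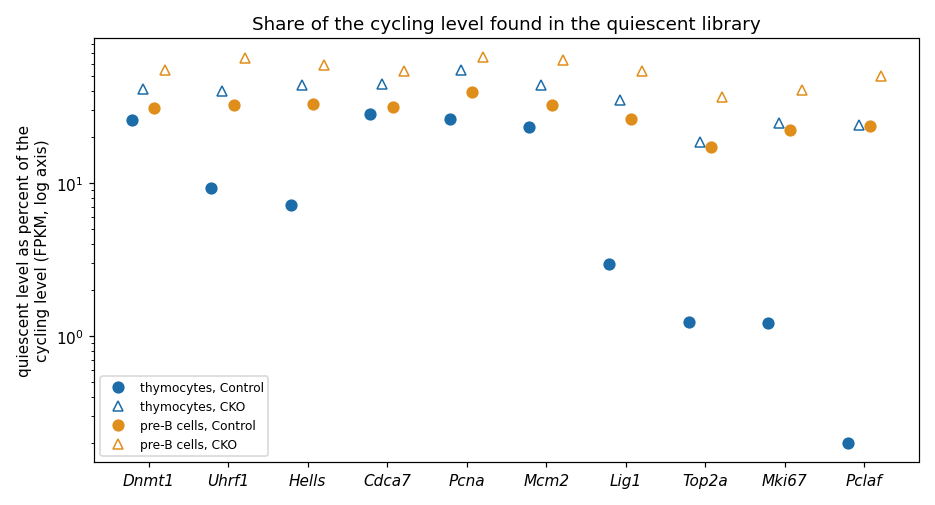
Level in the quiescent library as a percent of that in the cycling library (vertical axis, log scale, FPKM) for Dnmt1, Uhrf1 and 8 replication and cell-cycle genes, 1 symbol for each of 4 pairs; filled circles are Control and open triangles CKO. Control thymocytes range from 0.201% for Pclaf to 28.0% for Cdca7.

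Other genes of the pathway were grouped by role, with the state effect as the mean of both lineages, for which 34.6% of all genes were higher and 26.9% lower. Of 14 partners of the methylation machinery 11 were tested, and 8 were lower, 2 higher and 1 not called in quiescent cells, with a median of -1.19. Hells, the remodelling ATPase needed for methylation of repeats, was at 38.8 and 44.9 FPKM in Control and CKO cycling thymocytes, 2.80 and 19.5 FPKM in quiescent ones, 59.6 and 72.4 FPKM in large pre-B cells and 19.6 and 42.5 FPKM in small pre-B cells. Hells fell by 1.72 (SE 0.36, adjusted p = 0.011), and its partner Cdca7 fell by 1.38 (SE 0.16, adjusted p = 0.0022). Pcna fell by 1.19 (SE 0.21, adjusted p = 0.0058) and Lig1 fell by 2.21 (SE 0.50, adjusted p = 0.013). Usp7, a deubiquitinase that binds DNMT1 and UHRF1, rose by 0.28 (SE 0.08, adjusted p = 0.030). Uhrf2, the paralogue of Uhrf1, was at 29.4 to 37.2 FPKM in the 8 lymphoid libraries with a difference of 0.13 (SE 0.07, adjusted p = 0.16). Dnmt3l, a cofactor of the template-free enzymes, reached 1 FPKM only in granulocytes, at 2.16 and 1.34 FPKM in Control and CKO.

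Of 9 genes of the methyl-CpG-binding families 6 were higher, 1 lower and 2 not called, with a median of 0.42. Zbtb4 rose by 1.09 (SE 0.10, adjusted p = 0.0016) and Mbd5 by 0.57 (SE 0.08, adjusted p = 0.0036). Mbd3, a subunit of the NuRD complex, fell by 0.41 (SE 0.08, adjusted p = 0.0067). Mbd2 rose in thymocytes by 0.47 (SE 0.11, adjusted p = 0.021) and in pre-B cells fell by 0.63 (SE 0.11, adjusted p = 0.0097). That difference between lineages was 1.10 (SE 0.16, adjusted p = 0.029). This call was lost without the thymocyte Control, pre-B Control or pre-B CKO pair (adjusted p = 0.13, 0.21 and 0.11), with no filter on low values (0.081) and without the block (0.069). Mbd2 was at 234 and 228 FPKM in Control and CKO granulocytes against 51.4 to 86.9 FPKM in lymphoid cells.

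Of 16 partners of demethylation and its repair 14 were tested, and 8 were higher, 3 lower and 3 not called, with a median of 0.29. The 11 of 14 called stand beside 61.5% of all genes. Ogt, the glycosyltransferase that binds TET2 and TET3, was at 24.1 and 28.2 FPKM in Control and CKO cycling thymocytes, 79.3 and 64.2 FPKM in quiescent ones, 28.8 and 36.1 FPKM in large pre-B cells, 75.5 and 71.8 FPKM in small pre-B cells and 121 and 119 FPKM in granulocytes. It rose by 1.29 (SE 0.12, adjusted p = 0.0017). The glycosylase Neil1 rose by 1.26 (SE 0.07, adjusted p = 0.0015), and the stress gene Gadd45a by 1.09 (SE 0.07, adjusted p = 0.0015). Tdg, the glycosylase that removes oxidised methylcytosine, was at 38.8 to 57.9 FPKM in lymphoid libraries with a difference of -0.08 (SE 0.08, adjusted p = 0.41). The repair endonuclease Apex1 fell by 1.07 (SE 0.10, adjusted p = 0.0016), and the uracil glycosylase Ung fell by 0.87 (SE 0.22, adjusted p = 0.020).

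Of 16 genes that supply or remove the cofactors S-adenosylmethionine and 2-oxoglutarate, 8 were lower, 2 higher and 6 not called, with a median of -0.22. The share called, 10 of 16, was near that of all genes, 61.5%. Ahcy, which clears the by-product of methylation, fell by 1.49 (SE 0.14, adjusted p = 0.0017), the folate enzyme Shmt1 fell by 1.99 (SE 0.26, adjusted p = 0.0026) and the 2-oxoglutarate producer Idh3a fell by 1.12 (SE 0.09, adjusted p = 0.0015). Mat2a, which makes S-adenosylmethionine, rose in thymocytes by 0.59 (SE 0.10, adjusted p = 0.0093) and in pre-B cells fell by 0.49 (SE 0.10, adjusted p = 0.014), a difference between lineages of 1.09 (SE 0.14, adjusted p = 0.026). This call was lost without any one of the 4 pairs (adjusted p from 0.054 to 0.19), with no filter (0.073) and without the block (0.13). Of 5 H3K9 methyltransferases, Suv39h1 fell by 0.81 (SE 0.10, adjusted p = 0.0026), Suv39h2 fell by 0.95 (SE 0.16, adjusted p = 0.0050), and 3 were not called. For CKO against Control in quiescent populations 0 members of these 5 lists passed limma's threshold. The medians were 1.01 for the methylation partners, 0.00 for the readers, 0.10 for the demethylation list, 0.03 for the cofactor list and 0.01 for the H3K9 list, beside -0.03 over all genes.

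The genes whose levels followed each member most closely over the 10 libraries were found by Pearson correlation of log2(FPKM + 1), given here as a description, since the libraries share pools and cell states. For Dnmt1 these were Hirip3 (0.991), Rfc5 (0.989) and Wdhd1 (0.987), and for Uhrf1 Dnajc9 (0.995), Mcm6 (0.995) and Mcm3 (0.993). For Dnmt3a they were Zfp444 (0.974), Mtss1 (0.973) and Man1a (0.971), and for Dnmt3b Eif3b (0.983), Pycrl (0.982) and Naa15 (0.981). For Tet1 they were Gimap8 (0.970), Zfp788 (0.960) and Gabarapl1 (0.956), for Tet2 Rnpepl1 (0.987), Rad52 (0.986) and Cdk5 (0.984), and for Tet3 Tbcel (0.976), Sqstm1 (0.971) and Hbp1 (0.968). Among the members, Dnmt1 correlated with Uhrf1 at 0.94, with Tet2 at -0.81 and with Tet3 at -0.87 over the 10 libraries. Dnmt3a and Dnmt3b correlated at 0.64 over 10 libraries and at -0.66 over the 8 lymphoid ones, so the sign turned on the granulocytes, where both were low.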

How the data were processed

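RNA was extracted from stained cells with RNeasy kits and sequenced as standard Illumina libraries, per the labels' protocols. TopHat2 2.0.8b, Cuffdiff 2.1.1 and mm10 are named, without roles, in the submitters' processing notes. The deposited values are read as FPKM, a unit inferred from those tools and the values. Annotation and strand setting are not stated there. Each table held 23179 rows: 201 repeated another exactly, 163 named several genes, and of several rows for a symbol (47 symbols) the highest by mean was used.

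Values were tested as log2(FPKM + 1) with limma 3.58.1 (R 4.3.3, limma-trend), on genes that reached 1 FPKM in 2 or more fitted libraries. State effects had a block for each lineage and genotype, lineage effects one for each state and genotype (both 2 residual degrees of freedom), and genotype effects had population as a block (3 residual degrees of freedom over 4 populations, 4 over 5, 2 by state). All fits were run on simulated data, in which 40% to 99% of 2-fold changes were recovered. Recovery was 40% for the genotype effect in quiescent minus cycling cells and 57% for the state effect in thymocytes minus pre-B cells. The simulated noise followed each fit's own model, so it cannot check that model or the spread between animals. Within a population there was no test. Alternatives were pseudocounts of 0.1 and 5, no filter or one of 5 FPKM, median-ratio scaling, other blocks, and leaving out each pair or population. All 7 members are named; likeness used genes that reached 5 FPKM in 2 or more libraries and an SD of at least 0.5. Members, the 14 lists (143 of 145 entries found) and tests were chosen with earlier results of these data known. Of the genes in a list, those named were picked after their values were seen. Results for some genes of the lists are not reported here. Promoters are from RefSeq, positions from GENCODE vM21.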

Additional observations from a re-analysis of the deposited data

Results flagged for a closer look

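Dnmt1 and Dnmt3b differed between CKO and Control in opposite directions in granulocytes and in the 4 lymphoid populations. Dnmt1 was lower in CKO granulocytes, at -0.11 on the log2(FPKM + 1) scale, and higher in CKO in 4 of 4 lymphoid populations, by 0.27 to 1.08. Dnmt3b was lower in CKO granulocytes, at -0.12, and higher in 4 of 4 lymphoid populations, by 0.17 to 0.41. With 1 pair of granulocyte libraries, in which Dnmt3b is under 1 FPKM, the difference was not tested in either gene.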

How the results depend on the processing

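Depth is unknown, which limits most what can be said of Tet1 and of Dnmt3b in granulocytes, near 1 FPKM. No value of a member that had passed a test changed its sign under any alternative. The median-ratio factors were 0.990 to 1.01, so that scaling could change little. Of 661 member values under other pseudocounts, filters, scalings and blocks, 650 kept their side of the threshold, 10 lost it and 1 gained it; of 343 with a pair or population left out, 295 kept it, 41 lost it and 7 gained it. With no filter on low values, 3 members passed in thymocytes for the state effect, 3 in pre-B cells and 2 for the lineage effect over both states. Under a filter of 5 FPKM, which Tet1 and Tet2 do not pass, 3 passed in thymocytes. A pseudocount of 5 left 1 member past 2-fold in quiescent thymocytes, Uhrf1. With a pair left out, the number of members passing ranged from 0 to 5 in thymocytes, 0 to 6 in pre-B cells and 5 to 7 in their mean. For the lineage effect it ranged from 0 to 3 in cycling cells, 2 to 4 in quiescent cells and 1 to 4 over both. For the genotype effect it was 0 to 2 in quiescent populations and 0 to 1 for the difference between states. Fewer libraries were then fitted; the cause was not tested further. Without the replicate block of the state fit, Dnmt1 in pre-B cells did not pass (-1.27, adjusted p = 0.065), and no other member's state or genotype call changed. Counts over all genes moved by more than 1.5 times in 20 of 98 other settings and in 27 of 49 with a pair left out; for the state difference between lineages 761 became 0 with no filter.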
